A study of Homo sapiens and Mus musculus with 19 samples.

Results

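The genotype by shMBD6 interaction asks whether knockdown of MBD6, labelled shMBD6, moves chromatin-associated RNA (caRNA) by a different amount in TET2 KO than in TET2 WT cells. It was taken over all 12 K562 libraries among the 19 of the series, in 4 groups of 3: TET2 WT shControl, TET2 WT shMBD6, TET2 KO shControl and TET2 KO shMBD6. K562 is a human leukaemia line grown from a patient's pleural effusion, and its cells resemble early erythroid cells. Per the study's methods the shRNAs were delivered by lentivirus and selected with puromycin, the TET2 KO cells were made elsewhere beforehand, and if so all 4 groups carry an shRNA vector. The study's sample list gives these libraries siRNA names instead, and its methods also describe siRNA delivery to K562, so that the kind of knockdown cannot be told, and the labels' names are kept here. The sources used here do not say whether a genotype stands for a single clone. The study calls the replicates of its K562 genome-wide data biological without saying how they were kept apart, so that p-values measure the spread between these libraries, which may in part be technical.

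MBD6 carries a methyl-CpG-binding domain and is a partner of the PR-DUB complex, in which the deubiquitinase BAP1 and an ASXL protein remove ubiquitin from histone H2A lysine 119, a mark laid down by PRC1. TET2 is a dioxygenase that oxidises 5-methylcytosine in DNA and in RNA, and NSUN2 is among the enzymes that place that mark on RNA. caRNA is rich in unspliced and nuclear transcripts, so that a gene's count here is closer to its nascent and retained output than to its cytoplasmic messenger RNA.

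The interaction is written on the log2 scale as the shMBD6 effect in TET2 KO minus the shMBD6 effect in TET2 WT. A positive value (called higher) means that the gene moved upwards in TET2 KO relative to TET2 WT, and a negative value (called lower) the reverse. Calls are those of the edgeR quasi-likelihood test with a Benjamini-Hochberg threshold of 0.05 over all genes. Levels are CPM, counts scaled to a common library size with TMM factors, and ± beside a log2 change gives its SE. Of 58721 gene identifiers, 26023 passed the filter on low counts and were tested. The libraries held 52158403 to 102070223 gene counts, and 13.1% to 16.0% of read records lay outside genes.

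The identity of the cells was checked first. Of 10 fixed erythroid and K562 markers, 7 reached 1 CPM in at least 1 group, and their summed level was 838 to 863 CPM in TET2 WT shControl, 608 to 628 in TET2 WT shMBD6, 420 to 428 in TET2 KO shControl and 649 to 669 in the TET2 KO libraries labelled shMBD6. These sums, and the olfactory receptor levels below, are on the total of gene counts, without TMM factors. HBE1 and HBG2 were listed at 0 in all 12 libraries. The myeloid markers summed to at most 7.50 CPM, with ELANE and S100A8 at 0 in every library, and the lymphoid markers to at most 7.66 CPM. Megakaryocyte markers summed to 26.7 to 59.9 CPM and stromal or epithelial markers to 17.7 to 24.6 CPM.

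The caRNA count of the targeted gene did not follow its label in TET2 KO. In CPM, MBD6 read 43.3, 42.7 and 38.6 in TET2 WT shControl, 31, 25.7 and 27.2 in TET2 WT shMBD6, 30.6, 30.8 and 29.4 in TET2 KO shControl and 30.6, 38.3 and 34.2 in the TET2 KO libraries labelled shMBD6. The shMBD6 libraries were all below their controls in TET2 WT, whereas in TET2 KO the groups overlapped and the libraries labelled shMBD6 had the higher mean. MBD6 (ENSG00000166987.14, chr12:57520710-57530148, hg38) changed by -0.57 ± 0.08, adjusted p = 1.83e-07 in TET2 WT and by 0.19 ± 0.08, adjusted p = 0.057 in TET2 KO, and its interaction was 0.75 ± 0.11, adjusted p = 4.51e-07. In TET2 WT this is a 1.48-fold lower level. Under 8 of 20 alternative settings the higher MBD6 level in the TET2 KO libraries labelled shMBD6 passed the test. Whether the TET2 KO libraries carry the shRNA their labels name and whether the genotype alters the response cannot be told apart from these counts. A caRNA count is also no measure of cytoplasmic messenger RNA, so how far MBD6 was lowered in the cells was not tested. Every TET2 KO direction below therefore refers to the labels, and an interaction cannot be had without those 3 libraries.

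TET2 itself read 121, 122, 129 and 94.8 CPM on average in the 4 groups in the order above. Its interaction was -0.45 ± 0.06, adjusted p = 5.00e-08, with a change in TET2 WT that did not pass the test (0.00 ± 0.04, adjusted p = 0.97), though it did under 6 of 20 alternative settings, and a lower level in the TET2 KO libraries labelled shMBD6 (-0.44 ± 0.04, adjusted p = 7.24e-11). A count over the whole gene does not show a deletion that leaves transcription in place, so it does not check the genotype. PTPRC, the CD45 phosphatase, chosen after its values were seen, separated the genotypes in the 4 groups in order, at 94.6, 71.5, 0.0927 and 0.133 CPM.

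The response of library composition also differed between the genotypes, in 4 of 6 measures by the permutation test given below. Transcripts encoded by the mitochondrial genome rose from 0.0229% ± 0.000893 to 0.0460% ± 0.00490 of gene counts in TET2 WT and fell from 0.0514% ± 0.00288 to 0.0254% ± 0.00200 in TET2 KO (SD, n = 3), an interaction of -2.02 on the log2 scale. The exact two-sided permutation test of shRNA labels within genotype gave p = 0.005, the smallest its 400 arrangements allow, and 0.01 after adjustment over the 6 measures. Olfactory receptor genes, which are mostly silent outside the nose and served as a measure of background, rose from 0.0651 to 0.0799 CPM per kb in TET2 WT and fell from 0.0827 to 0.0668 in TET2 KO (exact permutation p = 0.005, adjusted 0.01). Of these receptor genes 61 passed the filter on low counts, and 7 of them stood 10 times above the mean receptor level per kb. The number of genes with at least 1 count ranged from 28970 to 31932, from 33529 to 34601, from 28400 to 29073 and from 24480 to 26963 in the 4 groups (exact permutation p = 0.005, adjusted 0.01). MALAT1 took 1.69%, 1.90%, 1.69% and 1.64% of gene counts (exact permutation p = 0.015, adjusted 0.0225). Its share rose in TET2 WT, while in TET2 KO the shControl libraries (1.64% to 1.72%) and those labelled shMBD6 (1.62% to 1.67%) overlapped. The shares outside genes and with several alignments gave adjusted exact permutation p = 0.12 and 0.67. In TET2 WT the share outside genes still rose, from 13.1% to 13.3% with shControl to 15.6% to 16.0% with shMBD6. In TET2 KO it was 14.98% to 15.04% with shControl and 15.05% to 15.15% in the libraries labelled shMBD6. The permutation assumes no shRNA effect in either genotype, so a change in 1 genotype alone may not pass it. The part of these shifts in the gene-level results was not tested.

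The interaction was called for 12852 of 26023 genes (49.4%), 6225 higher (23.9%) and 6627 lower (25.5%). Among the 9294 genes with a mean of at least 10 CPM over the 12 libraries the share was 78.0%, with 4662 higher (50.2%) and 2585 lower (27.8%). That split rested on the scaling: when these genes alone were rescaled and refitted, 3564 were higher (38.3%) and 3605 lower (38.8%), and the median interaction moved from 0.20 to 0.01. Of 8142 genes at least 10 times above the olfactory receptor level per kb, 5744 (70.5%) were called after rescaling on themselves, 2942 higher (36.1%) and 2802 lower (34.4%). Counts for most gene groups are therefore followed by the count and median after rescaling on genes of at least 10 CPM.

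With the TET2 KO labels taken as given, opposite responses outnumbered shared ones. Both classes, and the sign of the correlation below, rest on those labels. The TET2 WT arm had 11047 calls (42.5%), 4616 higher (17.7%) and 6431 lower (24.7%). The TET2 KO arm had 9465 calls (36.4%), 4095 higher (15.7%) and 5370 lower (20.6%). The balance within each genotype moved with the scaling, to 5798 higher and 4715 lower in TET2 WT under DESeq2 size factors and to 6046 higher and 4047 lower in TET2 KO under total gene counts. Both arms and the interaction were called, with opposite signs, for 5923 genes (22.8%): 3275 fell in TET2 WT and rose in TET2 KO (12.6%), and 2648 did the reverse (10.2%). Among genes of at least 10 CPM these were 2768 (29.8%) and 1349 (14.5%), together 44.3%. By contrast, 511 genes (1.96%) were called in both arms with the same sign and without a called interaction, 446 down (1.71%) and 65 up (0.250%). A further 240 fell and 36 rose in both arms by amounts that differed. The 2 arms share no library. Across the 9294 genes with at least 10 CPM their log2 changes had a Pearson correlation of -0.771, and 72.2% had opposite signs, as a description over genes, which are not independent replicates.

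**Figure D1:**
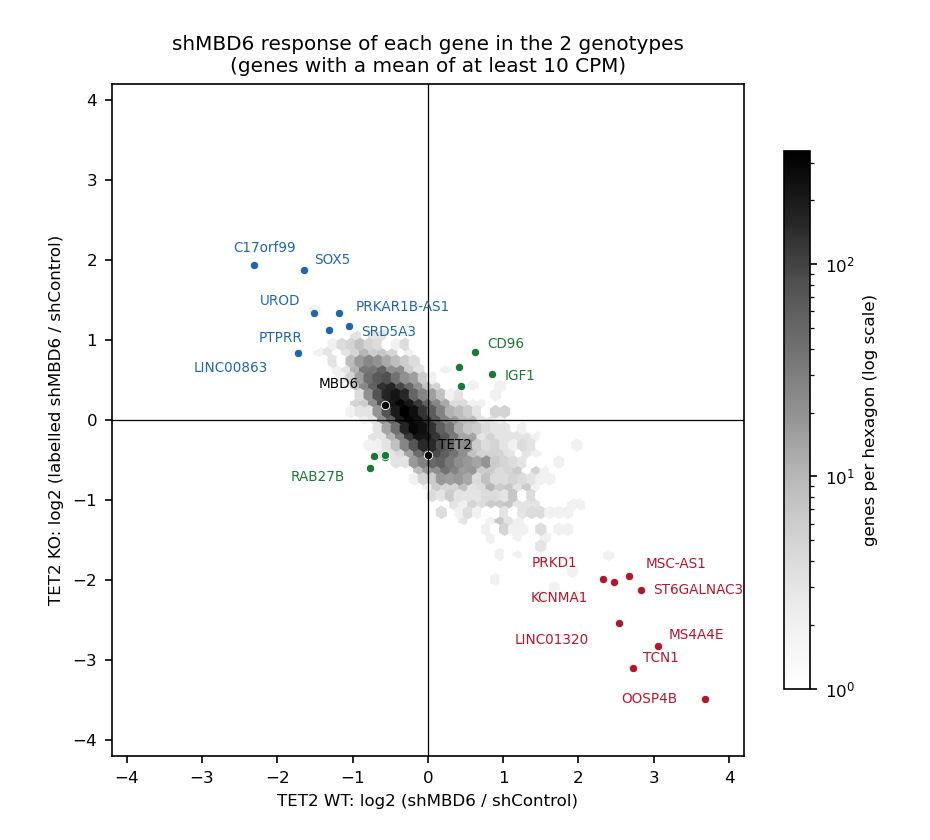
Each hexagon counts genes by their log2 change with shMBD6 in TET2 WT (horizontal axis) and in TET2 KO (vertical axis), for 9294 genes with a mean of at least 10 CPM; the coloured points are the named genes, with opposite responses in red and blue, shared responses in green and the targeted genes in black. The cloud runs from upper left to lower right with a Pearson correlation of -0.771, and OOSP4B lies farthest out at 3.68 and -3.48.

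The genes that rose most in TET2 WT while falling in TET2 KO were OOSP4B, MS4A4E, TCN1, ST6GALNAC3, KCNMA1 and PRKD1, ranked by the smaller of the 2 changes. OOSP4B (chr11:59978020-60031095) belongs to a family of oocyte-secreted proteins. In CPM, OOSP4B read 0.581, 1.42 and 0.876 in TET2 WT shControl, 11.4, 14.4 and 12.5 in TET2 WT shMBD6, 66.7, 77.7 and 72.4 in TET2 KO shControl and 6.11, 6.24 and 7.01 in the TET2 KO libraries labelled shMBD6. All 4 groups were apart from each other. Its changes were 3.68 ± 0.16 in TET2 WT and -3.48 ± 0.14 in TET2 KO, a 12.8-fold rise and an 11.2-fold fall, and its interaction was -7.16 ± 0.21, adjusted p = 2.92e-19. TET2 KO minus TET2 WT was 6.19 with shControl and -0.98 with shMBD6, values that share libraries with the arms.

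MS4A4E (chr11:60200270-60243137), of the membrane-spanning 4A family, and TCN1 (chr11:59852800-59866489), which encodes a vitamin B12 carrier of granulocytes and secretions, lie on either side of OOSP4B. In CPM, MS4A4E read 3.77, 3.55 and 4.67 in TET2 WT shControl, 32.8, 33.8 and 33.3 in TET2 WT shMBD6, 66.2, 74.4 and 75.1 in TET2 KO shControl and 9.44, 11.2 and 9.92 in the TET2 KO libraries labelled shMBD6. The interaction of MS4A4E was -5.88 ± 0.12, adjusted p = 8.39e-28, and an overlapping neighbour on its strand makes its count uncertain. In CPM, TCN1 read 1.02, 0.671 and 1.33 in TET2 WT shControl, 5.72, 7.56 and 6.76 in TET2 WT shMBD6, 31.4, 33.1 and 31 in TET2 KO shControl and 3.02, 3.54 and 4.51 in the TET2 KO libraries labelled shMBD6. The interaction of TCN1 was -5.83 ± 0.24, adjusted p = 4.21e-20. In both genes the control libraries of the 2 genotypes were farthest apart and the shMBD6 libraries lay between them.

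These 3 genes had not been chosen as neighbours, so the genes within 500 kb of OOSP4B were examined after their values were seen. Of 25 other genes tested there, 14 were lower for the interaction and 2 higher, with a median of -1.93. The run included MS4A3 (5.37, 34.8, 77.2 and 25 CPM in the 4 groups in order, interaction -4.32 ± 0.10), a myeloid member of the family, MS4A2 (0.248, 1.41, 17.1 and 2.74 CPM, -5.15 ± 0.31), the beta chain of the high-affinity IgE receptor, MS4A6A (-3.94 ± 0.53) and MS4A4A (-1.93 ± 0.06). Towards the edges of the window the changes of genes of at least 1 CPM were small or turned. STX3 was at -0.66 ± 0.05, OSBP at -0.26 ± 0.07, and LINC02739 and MS4A13 were higher at 2.84 ± 0.47 and 1.23 ± 0.23. Below that level MS4A6E, 349 kb away with a mean of 0.234 CPM, was still lower at -5.62 ± 1.51. Over all genes tested, 23.9% were higher and 25.5% lower. In windows of the same size around the others that fell in TET2 KO, 6 neighbours were lower and 1 higher of 11 for ST6GALNAC3, 2 and 1 of 6 for KCNMA1 and 5 and 0 of 9 for PRKD1. Around the genes named next, which rose in TET2 KO, 2 were lower and 13 higher of 25 for UROD, 6 and 5 of 18 for C17orf99, 3 and 1 of 10 for SOX5, 5 and 2 of 12 for PTPRR and 7 and 0 of 11 for SRD5A3. Of these 5 windows that of UROD alone held more genes higher than lower.

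**Figure D2:**
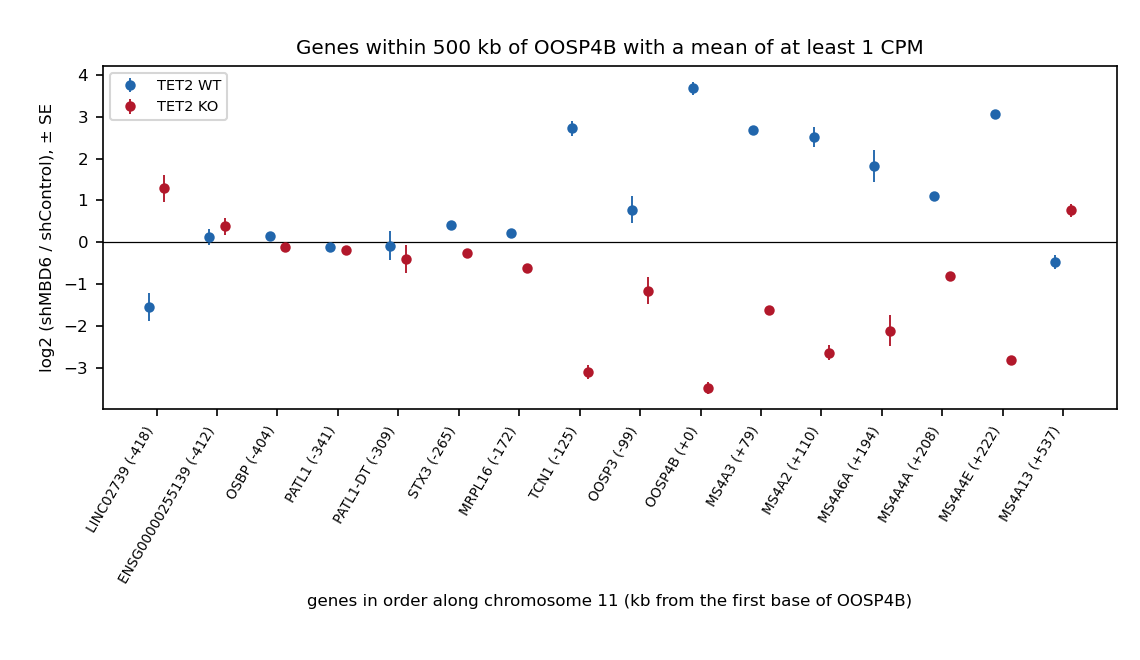
Points are the log2 change with shMBD6 in TET2 WT (blue) and TET2 KO (red) with SE for genes of at least 1 CPM within 500 kb of OOSP4B, in chromosomal order with the distance of each start from the first base of OOSP4B in kb in brackets. From TCN1 to MS4A4E every blue point lies above 0 and every red point below it, by 0.78 to 3.68 and by -0.81 to -3.48, while LINC02739 and MS4A13 show the reverse.

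The start-site sequences of the 3 neighbours are shown because they hold few CG. The RefSeq promoter table (GRCh38.p14) gives 250 bases before to 50 after the start, here from chr11:60016931-60017230 on the plus strand for OOSP4B, chr11:60243088-60243387 on the minus strand for MS4A4E and chr11:59866438-59866737 on the minus strand for TCN1. Capitals mark each CG dinucleotide, the site that methyl-CpG-binding domains are named for. The RefSeq start of OOSP4B lies inside the span that GENCODE gives the gene.
OOSP4B: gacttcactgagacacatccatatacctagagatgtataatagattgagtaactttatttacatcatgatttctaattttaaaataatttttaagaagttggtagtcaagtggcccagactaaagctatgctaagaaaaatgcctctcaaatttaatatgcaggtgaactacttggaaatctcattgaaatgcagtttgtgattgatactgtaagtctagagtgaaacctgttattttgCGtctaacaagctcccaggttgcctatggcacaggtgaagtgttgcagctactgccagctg
MS4A4E: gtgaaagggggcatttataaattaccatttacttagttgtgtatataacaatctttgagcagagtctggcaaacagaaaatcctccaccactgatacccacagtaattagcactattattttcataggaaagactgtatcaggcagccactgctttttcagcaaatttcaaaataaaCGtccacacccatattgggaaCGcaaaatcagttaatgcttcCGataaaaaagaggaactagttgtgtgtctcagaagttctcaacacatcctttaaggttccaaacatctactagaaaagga
TCN1: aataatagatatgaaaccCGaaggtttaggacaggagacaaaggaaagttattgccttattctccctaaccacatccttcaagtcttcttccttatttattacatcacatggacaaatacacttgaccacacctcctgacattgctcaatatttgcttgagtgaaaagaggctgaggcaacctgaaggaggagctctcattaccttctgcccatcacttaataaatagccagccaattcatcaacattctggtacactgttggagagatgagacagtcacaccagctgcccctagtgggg
They hold 1, 3 and 1 CG. Over 6874 of 8231 protein-coding genes with at least 10 CPM that matched the table, the median was 27 and 6.31% had fewer than 5. Among 806 matched genes that rose in TET2 WT and fell in TET2 KO the median was 25.5 and 15.8% had fewer than 5, against 27 and 4.13% in the 2178 that did the reverse. These are descriptions of 300 bases at 1 start site a gene, and say nothing of binding.

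ST6GALNAC3, KCNMA1 and PRKD1 are long genes. ST6GALNAC3 (chr1:76074746-76634603) encodes a sialyltransferase of glycolipids and glycoproteins. In CPM, ST6GALNAC3 read 8.58, 4.98 and 5.1 in TET2 WT shControl, 42.1, 42.5 and 45 in TET2 WT shMBD6, 191, 182 and 190.0 in TET2 KO shControl and 45.8, 41.2 and 42.2 in the TET2 KO libraries labelled shMBD6. Its interaction was -4.95 ± 0.22, adjusted p = 3.36e-08, and both shMBD6 groups reached nearly the same level. KCNMA1 (chr10:76869601-77638369) encodes the pore of a calcium-activated potassium channel. In CPM, KCNMA1 read 38.6, 38.4 and 37.9 in TET2 WT shControl, 211, 216 and 211 in TET2 WT shMBD6, 242, 237 and 247 in TET2 KO shControl and 60.1, 60.6 and 58.3 in the TET2 KO libraries labelled shMBD6. Its interaction was -4.49 ± 0.05, adjusted p = 2.06e-35. PRKD1 (chr14:29576479-30191898), a diacylglycerol-responsive kinase, read 3.93, 19.7, 24.6 and 6.19 CPM on average, with an interaction of -4.32 ± 0.15, adjusted p = 1.63e-21. The last 2 overlap another gene on their own strand.

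In the other direction C17orf99, SOX5, UROD, PTPRR and SRD5A3 fell in TET2 WT and rose in TET2 KO. C17orf99 (chr17:78146385-78166297) encodes a secreted cytokine-like protein. In CPM, C17orf99 read 75.5, 79.9 and 81 in TET2 WT shControl, 15.9, 16.3 and 15.4 in TET2 WT shMBD6, 4.6, 5.14 and 4.61 in TET2 KO shControl and 19.4, 19.2 and 16.3 in the TET2 KO libraries labelled shMBD6. Its changes were -2.31 ± 0.08 and 1.94 ± 0.08, and its interaction was 4.25 ± 0.11, adjusted p = 3.28e-25. That was the highest among the protein-coding genes of at least 10 CPM that are reported here. SOX5 (chr12:23529504-24562544) is an SRY-related transcription factor. In CPM, SOX5 read 228, 237 and 239 in TET2 WT shControl, 71.6, 75.4 and 77.4 in TET2 WT shMBD6, 21.1, 19.7 and 20.4 in TET2 KO shControl and 69.7, 75.2 and 79.8 in the TET2 KO libraries labelled shMBD6. The shControl groups were 234 and 20.4 CPM while both shMBD6 groups averaged close to 75, and the interaction was 3.52 ± 0.07, adjusted p = 2.81e-29.

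UROD (chr1:45010950-45015575) encodes uroporphyrinogen decarboxylase of the haem pathway. In CPM, UROD read 118, 109.8 and 107 in TET2 WT shControl, 42.2, 38.4 and 36.6 in TET2 WT shMBD6, 30.7, 31.3 and 30.7 in TET2 KO shControl and 78.5, 80.4 and 74.2 in the TET2 KO libraries labelled shMBD6. No library of any group reached into the range of another, the changes were -1.51 ± 0.05 and 1.33 ± 0.05, and the interaction was 2.85 ± 0.08, adjusted p = 5.09e-25. PTPRR, a receptor-type tyrosine phosphatase, read 42.8, 17.3, 23.6 and 51.6 CPM (2.44 ± 0.10, adjusted p = 3.89e-20), and SRD5A3, a polyprenol reductase needed for protein N-glycosylation, 33.1, 16, 16.2 and 36.8 CPM (2.23 ± 0.11, adjusted p = 1.39e-17).

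The promoters of the first 3 are given for comparison with the CG-poor starts above, from chr17:78146135-78146434 on the plus strand, chr12:24562442-24562741 on the minus strand and chr1:45012004-45012303 on the plus strand, with CG again in capitals. The start of UROD likewise lies inside its GENCODE span.
C17orf99: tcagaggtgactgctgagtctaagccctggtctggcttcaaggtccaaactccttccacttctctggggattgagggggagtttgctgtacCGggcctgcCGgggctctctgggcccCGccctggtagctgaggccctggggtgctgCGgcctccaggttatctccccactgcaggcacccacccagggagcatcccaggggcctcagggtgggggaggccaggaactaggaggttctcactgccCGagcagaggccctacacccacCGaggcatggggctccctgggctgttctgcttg
SOX5: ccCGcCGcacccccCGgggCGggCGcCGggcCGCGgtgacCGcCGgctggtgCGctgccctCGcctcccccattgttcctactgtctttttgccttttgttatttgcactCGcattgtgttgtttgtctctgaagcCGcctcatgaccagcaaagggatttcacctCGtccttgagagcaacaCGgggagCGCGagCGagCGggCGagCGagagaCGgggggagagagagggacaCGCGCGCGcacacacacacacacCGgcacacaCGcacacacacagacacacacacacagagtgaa
UROD: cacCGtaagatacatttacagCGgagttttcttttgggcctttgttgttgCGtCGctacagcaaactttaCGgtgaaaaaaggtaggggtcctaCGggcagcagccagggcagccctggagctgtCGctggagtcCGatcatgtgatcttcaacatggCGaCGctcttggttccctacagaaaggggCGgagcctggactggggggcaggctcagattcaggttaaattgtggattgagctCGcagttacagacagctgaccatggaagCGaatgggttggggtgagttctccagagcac
They hold 6, 29 and 13 CG. The letters GATAA, the core read by GATA factors, were searched on both strands. They occur in MS4A4E and C17orf99 among the 6 printed, in 23.4% of 27305 promoters of the table, in 13.7% of the 6874 matched protein-coding genes with at least 10 CPM, in 13.5% of the matched genes that fell in TET2 WT and rose in TET2 KO, and in 16.9% of those that did the reverse. Of 12 matched red-cell membrane genes 7 hold them, of 10 matched haem genes 3 and of 14 matched erythroid transcription factors 1. UROS did not match the table.

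**Figure D3:**
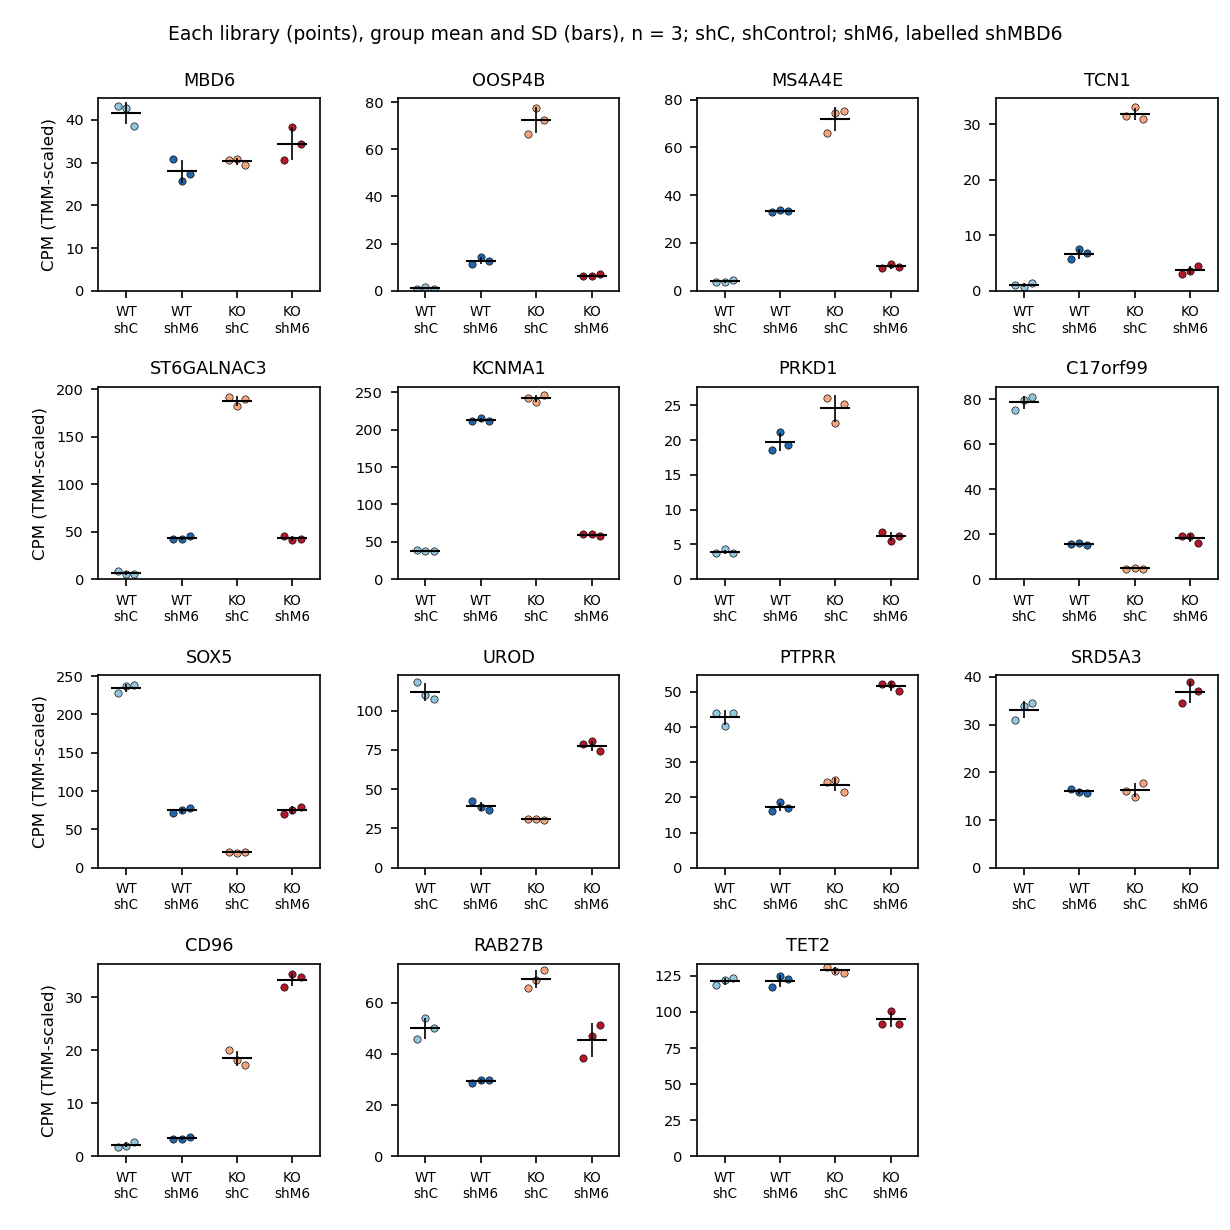
Points are the 3 libraries of each group and bars the mean with SD, in CPM, for MBD6, 11 of the genes with the strongest opposite responses, a gene of each shared class and TET2. In the opposite genes, chosen for large changes in both genotypes, the libraries labelled shMBD6 are on opposite sides of their controls with no overlap. CD96 is above and RAB27B below its control in both.

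Long non-coding genes carried interactions of similar size. LINC01320 (chr2:33706886-34738231) read 9.43, 54.9, 317 and 54.8 CPM in the 4 groups in order, with an interaction of -5.07 ± 0.06, adjusted p = 3.70e-34, and MSC-AS1 read 3.33, 21.4, 25.7 and 6.65 CPM (-4.63 ± 0.21, adjusted p = 7.70e-18). LINC00863 and PRKAR1B-AS1 were the highest, at 2.56 ± 0.15 and 2.52 ± 0.15, from means of 17.9, 5.41, 7.67 and 13.7 CPM and 16.2, 7.1, 7.98 and 20.2 CPM. Except for PRKAR1B-AS1 these overlap other genes on their strand. Of 803 long non-coding genes with at least 10 CPM, 223 were higher and 426 lower, with a median of -0.31, against 4333 higher and 2070 lower of 8231 protein-coding genes with a median of 0.23. These classes were not counted after rescaling.

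The strongest shared rises were in CD96, a receptor of T and NK cells, IGF1, a growth factor, INSR, the insulin receptor, and ZYX, a focal adhesion protein. In CPM, CD96 read 1.83, 1.96 and 2.7 in TET2 WT shControl, 3.3, 3.17 and 3.61 in TET2 WT shMBD6, 20.0, 18.2 and 17.1 in TET2 KO shControl and 31.8, 34.3 and 33.8 in the TET2 KO libraries labelled shMBD6. CD96 changed by 0.63 ± 0.13 and 0.85 ± 0.11, with an interaction of 0.22 ± 0.17, adjusted p = 0.28, and TET2 KO minus TET2 WT was 3.08 with shControl and 3.31 with shMBD6. IGF1 read 2.55, 4.64, 31.5 and 46.7 CPM and changed by 0.85 and 0.57. Its interaction (-0.28 ± 0.16, adjusted p = 0.13) passed the edgeR test after rescaling on genes of at least 10 CPM (-0.47, adjusted p = 0.0071) and under other settings. INSR changed by 0.43 and 0.42, and ZYX by 0.42 and 0.67. The strongest shared falls were in RAB27B, a Rab GTPase of vesicle secretion, PALMD, PIR, an iron-binding nuclear protein, and SLC6A19, a neutral amino acid transporter. In CPM, RAB27B read 45.9, 54 and 49.9 in TET2 WT shControl, 28.7, 29.6 and 29.9 in TET2 WT shMBD6, 65.6, 69 and 72.9 in TET2 KO shControl and 38.3, 47.1 and 51.2 in the TET2 KO libraries labelled shMBD6. RAB27B changed by -0.77 ± 0.07 and -0.60 ± 0.07, PALMD by -0.57 and -0.46, PIR by -0.71 and -0.44, and SLC6A19 by -0.57 and -0.43. The shared class held 283 genes under DESeq2 size factors, 295 under total gene counts and 302 with DESeq2, and 39 at a change of at least 0.5 in both arms.

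Most haem synthesis, red-cell membrane and erythroid transcription factor genes were higher for the interaction. Over all genes of at least 10 CPM 50.2% were higher and 27.8% lower, and 38.3% and 38.8% after rescaling. Of 13 haem synthesis genes 10 were higher and 2 lower, with a median of 0.83 against 0.20 for all genes with at least 10 CPM, and after rescaling 8 higher and 3 lower of 11, median 1.00. Behind UROD came UROS, the synthase before it in the pathway (109, 44.1, 36.9 and 64.7 CPM, 2.11 ± 0.07), PPOX (1.64 ± 0.11) and FECH, which inserts the iron (58.9, 34.6, 34.7 and 51.3 CPM, 1.33 ± 0.08). The lower members were ALAS2, the erythroid first enzyme of the pathway (25.3, 37.4, 31.2 and 21.9 CPM, -1.07 ± 0.10), and SLC25A37, the mitochondrial iron importer (230.3, 292, 261 and 206 CPM, -0.68 ± 0.04). ALAS1, the form used in all tissues, did not pass the test (-0.16 ± 0.13, adjusted p = 0.33).

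Red-cell membrane genes gave 12 higher and 1 lower of 17 tested, median 0.88 (rescaled, 10 higher and 2 lower of 14, median 0.78). Beside this, all genes of at least 10 CPM gave 50.2% higher and 27.8% lower, and 38.3% and 38.8% after rescaling. Beta spectrin SPTB read 184, 86.7, 83 and 163 CPM (2.06 ± 0.05, with a same-strand overlap), the blood group protein KEL 36, 19.2, 16.1 and 30.1 CPM (1.80 ± 0.12), the Rh-associated RHAG 167, 107, 82.8 and 123 CPM (1.22 ± 0.05) and ankyrin ANK1 806, 582, 425 and 566 CPM (0.88 ± 0.03). EPB41, protein 4.1, was the lower member (1054, 1350, 1218 and 1095 CPM, -0.51 ± 0.03). Erythroid transcription factors gave 11 higher and 2 lower of 16 tested, median 0.63 (rescaled, 10 higher and 4 lower of 15, median 0.47), and among those 10 times above the olfactory receptor level 7 higher and 4 lower of 13, median 0.32. LMO2, the bridging subunit of the TAL1 and GATA1 complex, read 247, 92.8, 54.7 and 100.5 CPM (2.29 ± 0.06), GFI1B, a repressor, 46.3, 27.5, 22.6 and 40.6 CPM (1.60 ± 0.10), KLF1 18.7, 9.79, 7.94 and 12.1 CPM (1.54 ± 0.16) and GATA1 54.2, 35.3, 34.9 and 46.4 CPM (1.03 ± 0.09). In each of these the level fell in TET2 WT and rose in TET2 KO. Of 8 globin genes tested 2 were higher, HBG1 (6.63, 1.75, 0.99 and 2.77 CPM, 3.42 ± 0.37) and HBD (1.98 ± 0.42), both uncertain through overlapping and near-identical genes. That is 25.0%, close to the 23.9% higher over all genes tested, and no globin gene reached a mean of 10 CPM.

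**Figure D4:**
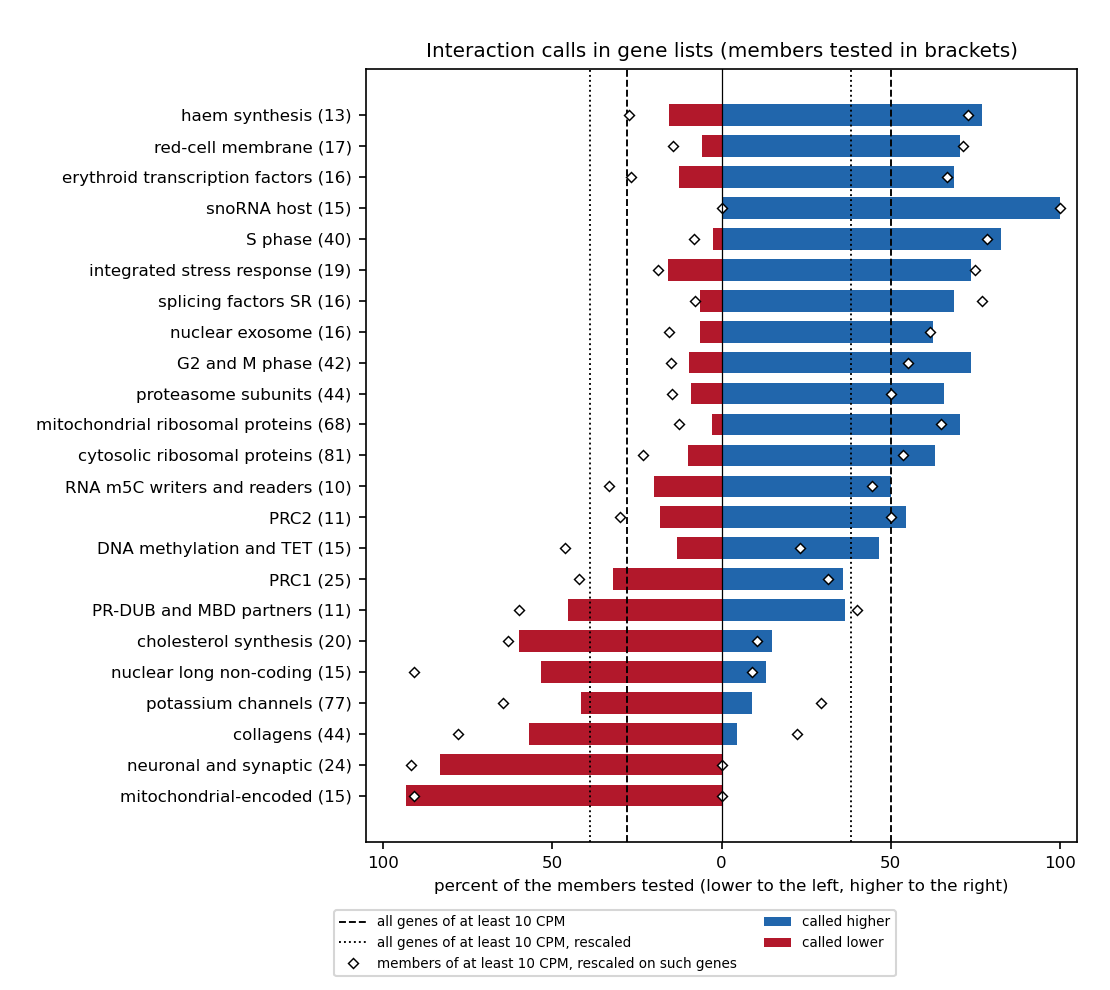
Bars give the percent of tested members called higher (blue, right) and lower (red, left) for the interaction, and white diamonds the same for members of at least 10 CPM after rescaling on such genes; dashed lines mark 50.2% higher and 27.8% lower over all genes of at least 10 CPM, and dotted lines 38.3% and 38.8% after that rescaling. The bars of the erythroid, S phase and snoRNA host lists pass the dashed line on the right and their diamonds the dotted one, as those of the mitochondrial-encoded and neuronal lists do on the left.

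The S phase list, mostly genes of DNA replication, gave 33 higher and 1 lower of 40 tested, median 0.85 (rescaled, 29 higher and 3 lower of 37, median 0.69), and 28 of its members fell in TET2 WT and rose in TET2 KO. Background shares at 10 CPM or more were 50.2% higher and 27.8% lower, and 38.3% and 38.8% after rescaling. E2F8, a repressor of E2F targets, read 70.3, 37.1, 35.7 and 71.7 CPM (1.93 ± 0.08), CCNE1, cyclin E1, 16.4, 8.62, 7.92 and 12.8 CPM (1.62 ± 0.16), PCNA, the sliding clamp, 19.4, 11.7, 12 and 19.9 CPM (1.46 ± 0.14, same-strand overlap) and MCM2, of the replicative helicase, 55.6, 34.5, 38.5 and 65.3 CPM (1.45 ± 0.08). The G2 and M phase list gave 31 higher and 4 lower of 42 tested, median 0.40, reduced on rescaling to 22 higher and 6 lower of 40, median 0.21, with HJURP, the CENP-A chaperone, highest at 1.20 ± 0.06. Among G1 regulators and MYC (10 higher and 4 lower of 17 tested, median 0.34, and rescaled 9 higher and 3 lower of 12, median 0.23), CDK4 and the inhibitor CDKN1B were higher (1.51 ± 0.11 and 1.50 ± 0.15), while the inhibitor CDKN1A and RB1 were lower (-2.01 ± 0.31 and -1.14 ± 0.05).

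All 15 snoRNA host genes tested were higher, with a median of 1.02 (rescaled, 14 higher and 0 lower of 14, median 0.81), and 10 fell in TET2 WT and rose in TET2 KO. As background, genes of at least 10 CPM gave 50.2% higher and 27.8% lower, and 38.3% and 38.8% after rescaling. SNHG15 read 49.1, 20.8, 27.7 and 47.3 CPM (2.01 ± 0.10) and SNHG1 81.3, 40.5, 49.1 and 77.5 CPM (1.66 ± 0.08), though snoRNA hosts overlap the snoRNA they contain. SR splicing factors gave 11 higher and 1 lower of 16 tested, median 0.65 (rescaled, 10 higher and 1 lower of 13, median 0.44), led by SRSF2 (1.01 ± 0.08). Nuclear exosome genes gave 10 higher and 1 lower of 16 tested, median 0.54 (rescaled, 8 higher and 2 lower of 13, median 0.27), with EXOSC9 at 1.14 ± 0.11. Cytosolic ribosomal protein genes gave 51 higher and 8 lower of 81 tested, median 0.45 (rescaled, 37 higher and 16 lower of 69, median 0.32) and mitochondrial ribosomal protein genes 48 higher and 2 lower of 68 tested, median 0.64 (rescaled, 26 higher and 5 lower of 40, median 0.36). Replication-dependent histone genes gave 26 higher and 8 lower of 53 tested, median 0.62, but among members of at least 10 CPM after rescaling 5 were higher and 5 lower of 13. The 11 paraspeckle genes gave 5 higher and 3 lower, with HNRNPK at 1.28 ± 0.07 and the scaffold NEAT1 at -0.67 ± 0.03.

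The integrated stress response gave 14 higher and 3 lower of 19 tested, median 0.77 (rescaled, 12 higher and 3 lower of 16, median 0.53). The shares over all genes of at least 10 CPM were 50.2% higher and 27.8% lower, and 38.3% and 38.8% after rescaling. ATF4, its central transcription factor, read 42.3, 28.6, 29.9 and 38 CPM (0.91 ± 0.10), PCK2, a mitochondrial gluconeogenic enzyme, 66.6, 37.9, 51 and 74 CPM (1.35 ± 0.07), and NUPR1 was lower at 1.23, 4.81, 6.36 and 2.11 CPM (-3.56 ± 0.34). The unfolded protein response gave 6 higher and 2 lower of 15 tested, median 0.24. Its chaperones HYOU1 and CANX were higher (1.42 ± 0.05 and 1.13 ± 0.05), and HSPA5 rose in both genotypes but more in TET2 KO (0.14 ± 0.04 and 0.72 ± 0.04). Its median turned to -0.09 among genes 10 times above the olfactory receptor level. Proteasome subunits gave 29 higher and 4 lower of 44 tested, median 0.41 (rescaled, 17 higher and 5 lower of 34, median 0.23), and complex I subunits 15 higher and 1 lower of 33 tested, median 0.41 (rescaled, 9 higher and 3 lower of 19, median 0.23). Heat shock genes gave 5 higher and 3 lower of 13 tested, median 0.26, and apoptosis and p53 genes 14 higher and 5 lower of 20 tested, median 0.51 (rescaled, 7 higher and 3 lower of 14, median 0.22), with GADD45A at 1.66 ± 0.10 and BCL2 at -0.88 ± 0.11.

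Transcripts of the mitochondrial genome showed the opposite pattern, with 14 of 15 lower, none higher and a median of -3.52 (rescaled, 0 higher and 10 lower of 11, median -3.10). Over all genes tested 25.5% were lower, and 38.8% of those of at least 10 CPM after rescaling. Of the 15 mitochondrial transcripts, 13 rose in TET2 WT and fell in TET2 KO. MT-ND2 read 10.4, 11.6 and 12.3 CPM, 27.9, 32.4 and 37.9 CPM, 50.1, 52.7 and 51.6 CPM and 9.47, 13.3 and 10.1 CPM in the 4 groups in order, with an interaction of -3.74 ± 0.15, adjusted p = 1.55e-19. MT-CO2 read 7.12, 23.7, 35 and 8.25 CPM (-3.82 ± 0.14). Mitochondrial transcripts are not made on nuclear chromatin, and their share of the gene counts was 0.0220% to 0.0540%. Fewer mitochondria in the fraction and less RNA in each cannot be told apart in bulk libraries.

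Neuronal and synaptic genes were lower, with 20 of 24 lower, none higher and a median of -1.30 (rescaled, 0 higher and 11 lower of 12, median -1.83). For comparison, 23.9% of all genes tested were higher and 25.5% lower, and of genes of at least 10 CPM after rescaling 38.3% and 38.8%. Besides KCNMA1 these included NRXN3, a presynaptic adhesion protein (12.6, 42.5, 208 and 79.1 CPM, -3.15 ± 0.07), CNTNAP2 (126, 349, 711 and 274 CPM, -2.85 ± 0.04) and DLG2, a scaffold of the postsynaptic density (47.7, 99.2, 103 and 39.1 CPM, -2.46 ± 0.07), all with same-strand overlaps. Of 402 protein-coding genes over 300 kb with at least 10 CPM, 305 (75.9%) were lower, and 339 after rescaling. The part of span in the neuronal list was not tested. Collagen genes gave 2 higher and 25 lower of 44 tested, median -1.34 (rescaled, 2 higher and 7 lower of 9, median -0.68), with COL6A3, also in the stromal list, at 60.6, 210.3, 212 and 169.5 CPM (-2.12 ± 0.05). Potassium channel genes gave 7 higher and 32 lower of 77 tested, median -0.98 (rescaled, 5 higher and 11 lower of 17, median -0.55), and cadherins 1 higher and 8 lower of 18 tested, median -1.50, with CDH12 at -3.06 ± 0.18. Olfactory receptors, the background measure, gave 0 higher and 13 lower of 61 tested, median -1.26, so that lists of low genes share the direction of the background, whose part in them was not tested. No neuronal list member was 10 times above the olfactory receptor level per kb of span.

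Cholesterol synthesis genes were mostly lower, with 3 higher and 12 lower of 20 tested, median -0.29 (rescaled, 2 higher and 12 lower of 19, median -0.52). Among all genes of at least 10 CPM, 50.2% were higher and 27.8% lower, or 38.3% and 38.8% after rescaling. FDFT1, squalene synthase, read 103, 147, 147 and 95.1 CPM (-1.14 ± 0.05), IDI1 16.7, 22.9, 19.8 and 13.5 CPM (-1.02 ± 0.12) and HMGCS1 69, 73.3, 87.1 and 57.8 CPM (-0.68 ± 0.06), whereas LSS, lanosterol synthase, and SCD, a desaturase, were higher (1.00 ± 0.06 and 0.75 ± 0.05). Glycolysis and hypoxia genes gave 11 higher and 6 lower of 22 tested, median 0.11 (rescaled, 7 higher and 6 lower of 17, median -0.005), with HK2 higher (1.48 ± 0.10) and NDRG1 lower (-2.95 ± 0.24). NRF2 and glutathione genes gave 7 higher and 4 lower of 16 tested, median 0.14 (rescaled, 4 higher and 5 lower of 13, median 0.07). Nuclear long non-coding genes gave 2 higher and 8 lower of 15 tested, median -0.40 (rescaled, 1 higher and 10 lower of 11, median -0.58), among them MIR100HG (2.82, 6.5, 26.6 and 3.23 CPM, -4.23 ± 0.35), while MIR17HG, host of a microRNA cluster, was higher (163, 79.3, 120.3 and 179.9 CPM, 1.62 ± 0.05).

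The complexes around MBD6 and TET2 moved in both directions. The list of PR-DUB and MBD partners gave 4 higher and 5 lower of 11 tested, median 0.00, and its median was -0.16 after rescaling. MBD5, the paralogue of MBD6 that also joins PR-DUB, read 185, 197 and 201 CPM, 292, 304 and 306 CPM, 419, 427 and 433 CPM and 227, 233 and 238 CPM, rose in TET2 WT (0.63 ± 0.03), fell in TET2 KO (-0.87 ± 0.03) and gave an interaction of -1.51 ± 0.05, adjusted p = 1.08e-23, with a same-strand overlap. BAP1 went the other way at 28.3, 19.6, 20.9 and 30.9 CPM (1.09 ± 0.12, adjusted p = 1.71e-09), as did OGT, the O-GlcNAc transferase that binds the complex (1136, 961, 1007 and 1389 CPM, 0.70 ± 0.03). ASXL1 changed in TET2 WT (-0.30 ± 0.03) but not in TET2 KO by this test (-0.02 ± 0.03, adjusted p = 0.75), and ASXL2 fell alike in both (-0.19 ± 0.03 and -0.19 ± 0.03). HCFC1 and FOXK1 were lower (-0.34 ± 0.07 and -0.36 ± 0.06).

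Among the 25 PRC1 genes 9 were higher and 8 lower, led by BCOR, a scaffold of a variant complex (404, 266, 271 and 418 CPM, 1.23 ± 0.04), and by AUTS2 on the lower side (6.9, 17.7, 9.6 and 4.03 CPM, -2.61 ± 0.18). After rescaling, 6 PRC1 genes were higher and 8 lower of 19, median -0.15. PRC2 gave 6 higher and 2 lower of 11 tested, median 0.19 (rescaled, 5 higher and 3 lower of 10, median 0.05), with PHF19 at 1.08 ± 0.06 and the methyltransferase EZH2 at 0.29 ± 0.03. Of 10 RNA m5C writers and readers 5 were higher and 2 lower, median 0.29 (rescaled, 4 higher and 3 lower of 9, median 0.15). NSUN2 read 118, 87.1, 112 and 128 CPM (0.62 ± 0.06, adjusted p = 1.93e-11), the reader ALYREF 12.3, 8.31, 9.97 and 13.7 CPM (1.03 ± 0.16) and the reader YBX1 160.0, 118, 144 and 153 CPM (0.52 ± 0.06). DNA methylation and TET genes gave 7 higher and 2 lower of 15 tested, median 0.14, with the glycosylase TDG and the maintenance factor UHRF1 at 0.93 ± 0.08 and 0.90 ± 0.08, and their median was -0.05 after rescaling. HUSH and H3K9 methylation genes gave 8 higher and 5 lower of 16 tested, median 0.27 (rescaled, 4 higher and 7 lower of 15, median 0.05), led by SUV39H1 (1.31 ± 0.11). Over all genes of at least 10 CPM, 50.2% were higher and 27.8% lower, and 38.3% and 38.8% after rescaling.

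Zinc finger genes, often held in H3K9-methylated chromatin, gave 98 higher and 25 lower of 217 tested, median 0.27 on chromosome 19 and 124 higher and 57 lower of 270 tested, median 0.27 elsewhere, with medians of 0.10 and 0.12 after rescaling. Of all genes tested 23.9% were higher and 25.5% lower, and of those of at least 10 CPM 50.2% and 27.8%. HERVH-derived transcripts gave 0 higher and 4 lower of 6 tested, median -1.08, with 1 of them at 10 CPM or more. HOX genes gave 3 higher and 1 lower of 11 tested, median -0.87, kinesins 15 higher and 11 lower of 38 tested, median 0.07 and solute carriers 97 higher and 101 lower of 335 tested, median -0.14. Spliceosomal small nuclear RNA genes gave 13 higher and 3 lower of 59 tested, median 1.04, and small nucleolar RNA genes 3 higher and 0 lower of 7 tested, median 1.75, both counted only where their reads were unique.

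Signalling lists held members in both directions. So did all genes tested, with 23.9% higher and 25.5% lower, and those of at least 10 CPM, with 50.2% and 27.8%. After rescaling the latter shares were 38.3% and 38.8%. JAK-STAT feedback and target genes gave 8 higher and 6 lower of 18 tested, median 0.19 (rescaled, 6 higher and 7 lower of 15, median -0.07). SOCS3 was lower (-1.27 ± 0.17) and the erythropoietin receptor EPOR higher (22.8, 14.7, 11 and 14.1 CPM, 0.99 ± 0.14, same-strand overlap). NF-kB targets gave 5 higher and 4 lower of 18 tested, median 0.18 (rescaled, 2 higher and 1 lower of 9, median 0.02), with IL6 at -2.83 ± 0.33 and CXCL2 at 2.18 ± 0.29. AP-1 and immediate early genes gave 11 higher and 6 lower of 25 tested, median 0.23 (rescaled, 7 higher and 2 lower of 12, median 0.22), with EGR1 and ATF3 higher (1.57 ± 0.16 and 1.24 ± 0.09). Of the EGF family 3 were higher and 7 lower, with the ligands AREG (8.3, 3.64, 1.54 and 5.85 CPM, 3.12 ± 0.27) and EREG (5.73, 3.73, 5.86 and 15.4 CPM, 2.01 ± 0.21) on the higher side. TGF-beta and BMP genes gave 5 higher and 6 lower of 17 tested, median -0.30 (rescaled, 2 higher and 7 lower of 12, median -0.34) and Wnt genes 2 higher and 4 lower of 16 tested, median 0.08. Notch genes gave 2 higher and 4 lower of 15 tested, median -0.18 (rescaled, 2 higher and 3 lower of 5, median -0.37) and interferon response genes 1 higher and 3 lower of 18 tested, median -0.55 (rescaled, 1 higher and 2 lower of 3, median -0.26). NOTCH1 read 29.9, 60.8, 58.7 and 35.5 CPM (-1.75 ± 0.09, same-strand overlap).

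Myeloid genes gave 1 higher and 8 lower of 14 tested, median -1.53 (rescaled, 1 higher and 3 lower of 4, median -0.81), with CD33 at 16.8, 26.2, 38.4 and 33.7 CPM (-0.83 ± 0.10) and FCGR2A at 18.1, 25.2, 17.5 and 11.5 CPM (-1.09 ± 0.13). Megakaryocyte and platelet genes gave 1 higher and 5 lower of 13 tested, median -0.33 (rescaled, 0 higher and 3 lower of 3, median -0.37), where TUBB1, the platelet beta-tubulin, was the exception at 14.5, 12 and 12.7 CPM, 1.7, 1.94 and 2.77 CPM, 0.262, 0.679 and 0.659 CPM and 5.83, 2.97 and 3.52 CPM (5.58 ± 0.37). Stem and progenitor genes gave 2 higher and 5 lower of 10 tested, median -1.16 (rescaled, 1 higher and 3 lower of 5, median -0.33), with the receptor KIT at 0.827, 2.79, 28.4 and 19.3 CPM (-2.25 ± 0.24). Lymphoid genes gave 2 higher and 2 lower of 15 tested, median -0.03, and stromal and epithelial genes 1 higher and 6 lower of 11 tested, median -0.65 (rescaled, 0 higher and 3 lower of 4, median -1.64). Beside these lists, 23.9% of all genes tested were higher and 25.5% lower. Genes of at least 10 CPM gave 38.3% and 38.8% after rescaling.

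The median of the PRC1, PRC2, PR-DUB, DNA methylation, JAK-STAT, Wnt, unfolded protein response, heat shock, HUSH, paraspeckle, glycolysis, lymphoid, EGF family, kinesin, HOX, cadherin and solute carrier lists changed sign under at least 1 other scaling, so that no direction is given for them as groups. The main lists were also read among members 10 times above the olfactory receptor level, where 36.1% of all genes were higher and 34.4% lower. Haem synthesis then gave 8 higher and 3 lower of 11, median 0.92, red-cell membrane 8 higher and 1 lower of 10, median 0.86, S phase 23 higher and 3 lower of 32, median 0.59 and G2 and M phase 19 higher and 7 lower of 40, median 0.13. The snoRNA hosts gave 13 higher and 0 lower of 14, median 0.73, SR factors 11 higher and 2 lower of 14, median 0.39, the nuclear exosome 8 higher and 1 lower of 14, median 0.27 and the integrated stress response 12 higher and 4 lower of 17, median 0.50. Cytosolic ribosomal proteins gave 35 higher and 16 lower of 74, median 0.23, mitochondrial ribosomal proteins 26 higher and 5 lower of 48, median 0.36, mitochondrial-encoded genes 0 higher and 14 lower of 15, median -3.78 and cholesterol synthesis 2 higher and 14 lower of 19, median -0.60.

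Genes that overlap another gene on their own strand have uncertain counts. As the strand option of the counting is not known, an overlap on the other strand may matter as well. MS4A4E, for example, lies within MS4A4A, but such overlaps were not listed. Beside those marked above, this holds for C17orf99, SRD5A3, CD96, ZYX, RAB27B, STX3, OSBP, ASXL2, FOXK1, UHRF1, TDG, ANK1, EPB41, GFI1B, FCGR2A, CDK4, RB1, NUPR1, CANX, NDRG1, BCL2, NEAT1, MALAT1, HNRNPK, MIR17HG, MIR100HG, SRSF2 and CDH12.

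The interaction varied with level and with span. The median was -1.18 for 10563 genes under 1 CPM, -0.65 for 3096 from 1 to 3 CPM, 0.07 for 3070 from 3 to 10 CPM, 0.34 for 3147 from 10 to 30 CPM, 0.27 for 3529 from 30 to 100 CPM and 0.005 for 2618 above. Among protein-coding genes of at least 10 CPM the median fell with the span of the gene, from 0.65 under 10 kb (473 higher and 50 lower of 656) through 0.49 from 10 to 30 kb, 0.24 from 30 to 100 kb and -0.11 from 100 to 300 kb to -0.55 over 300 kb (60 higher and 305 lower of 402). Among genes 10 times above the olfactory receptor level and rescaled on themselves, it ran from 0.39 to -0.47 over the same classes, with 12 higher and 108 lower of 126 over 300 kb. The part of span in the list results was not tested.

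**Figure D5:**
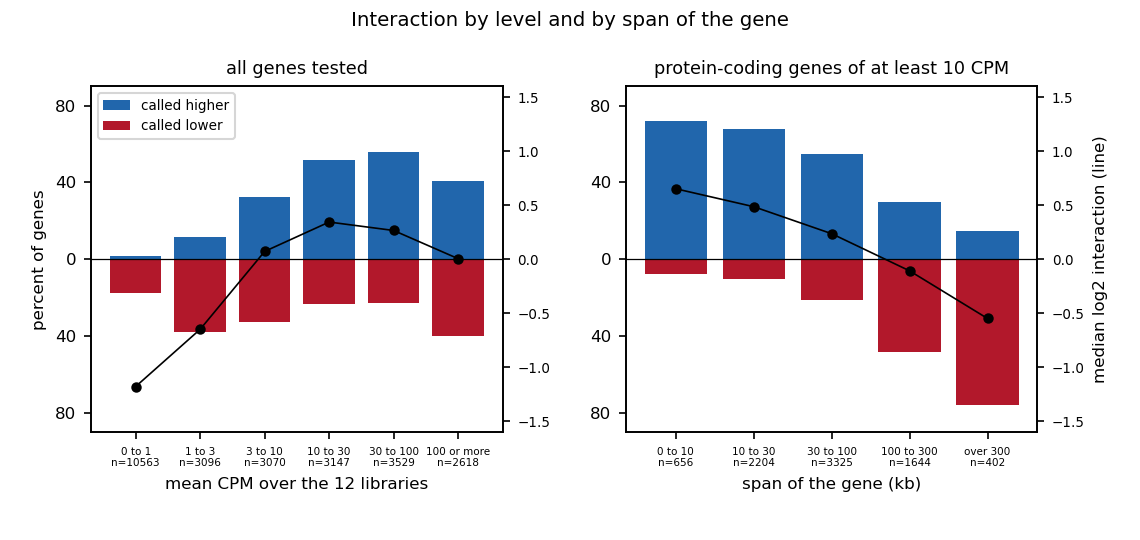
Bars show the percent of genes called higher (blue) and lower (red) for the interaction and black points the median log2 interaction (right axis), by mean CPM over all genes tested (left panel) and by gene span over protein-coding genes of at least 10 CPM (right panel). The median climbs from -1.18 under 1 CPM to 0.34 from 10 to 30 CPM, returns to 0.005 above 100 CPM, and falls from 0.65 to -0.55 with span.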

How the data were processed

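caRNA from K562 cells was sequenced after ribosomal RNA depletion with a stranded total-RNA kit. Per the study's methods and the submitters' processing notes, the authors trimmed reads with Trimmomatic 0.39, aligned them to hg38 with HISAT2 2.2.1 and counted them per gene with HTSeq 0.12.4, while featureCounts is also named for caRNA. The deposited values were raw counts per gene and library. The sources used here give neither the feature type nor the strand option. Summary lines without a gene stayed out of all totals: 13.1% to 16.0% of records lay outside genes, 4.63% to 5.24% were ambiguous and 10.1% to 11.2% had several alignments, so that overlapping or near-identical genes are undercounted. No spike-in lines were in the tables used, and changes in total caRNA cannot be seen. Positions and classes came from GENCODE v44 (hg38), which matched 99.12% of identifiers. Mouse libraries were not used here.

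The test was edgeR 4.0.16 quasi-likelihood (limma 3.58.1, R 4.3.3) over 12 libraries and 4 group means, with TMM scaling, filterByExpr at 10 counts, robust dispersions and Benjamini-Hochberg adjustment over all 26023 genes. It was checked on simulated counts. SE came from the F statistic. Replicate pairs had chi-square per degree of freedom of 5.30 to 14.9 over genes and were counted separately. Composition was compared with exact permutation tests (scipy 1.17.1). Groups came from the labels, which name no batch. Alternatives were other scalings, filters and thresholds, DESeq2 1.42.0, a replicate block and leaving out each library.

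Genes named by rule had a mean of at least 10 CPM and a symbol. They were the 6 protein-coding genes of each opposite class and 4 of each shared class by the smaller of both changes. Added were the 4 protein-coding and 2 long non-coding genes with the most extreme interaction in each direction, MBD6 and TET2. Examples from the lists and neighbours were chosen with their values known, and some of them lay under 10 CPM. A gene the rule names is not reported here. The comparison, 42 lists and 15 families were chosen with earlier results of these data known. Of 18 same-numbered library pairs across groups, 11 had deviations that correlated over 0.1 (-0.067 to 0.312, median 0.109), among them all 3 of TET2 WT. As not all did, numbers were not treated as pairs.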

Additional observations from a re-analysis of the deposited data

Results flagged for a closer look

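With the TET2 KO labels taken as given, the responses to shMBD6 differed between the genotypes for 12852 genes by the edgeR interaction test. Among the named genes the interaction was lower for OOSP4B (-7.16), MS4A4E (-5.88), TCN1 (-5.83), LINC01320 (-5.07), ST6GALNAC3 (-4.95), MSC-AS1 (-4.63), KCNMA1 (-4.49), PRKD1 (-4.32) and TET2 (-0.45). It was higher for C17orf99 (4.25), SOX5 (3.52), UROD (2.85), LINC00863 (2.56), PRKAR1B-AS1 (2.52), PTPRR (2.44), SRD5A3 (2.23) and MBD6 (0.75). Their groups did not overlap in either genotype except for MBD6 in TET2 KO and TET2 in TET2 WT. Apart from MBD6 and TET2 these genes were chosen by the size of their changes, from which the lack of overlap largely follows. The share of all genes tested without such overlap was not computed. Interactions of library composition, the shMBD6 effect in TET2 KO minus that in TET2 WT, also passed the exact permutation test. On the log2 scale they were -2.02 for the mitochondrial share of counts and -0.61 for the olfactory receptor level per kb. They were -0.29 for the number of genes with a count and -0.20 for the share of MALAT1.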

How the results depend on the processing

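The main limits are the MBD6 count in TET2 KO, which did not follow the labels, the missing spike-in and the choice of genes that set the scale. No called effect of the 25 named genes changed sign under the alternatives run. The IGF1 interaction, not called here, was called under DESeq2 size factors (-0.38, adjusted p = 0.044), with no filter (-0.34, 0.032), rescaled on genes of at least 10 CPM (-0.47, 0.0071) and without TET2 WT shMBD6 replicate 3 (-0.42, 0.019, edgeR). Those of ZYX (0.32), RAB27B (0.28) and PIR (0.39) were called without TET2 KO shMBD6 replicate 1. SLC6A19 in TET2 KO lost its call under total gene counts (adjusted p = 0.067) and without TET2 KO shControl replicate 1 (adjusted p = 0.051, edgeR). Of the 12852 interaction calls, 11965 were kept with the same sign under DESeq2 size factors, 12644 under total gene counts and 11951 with DESeq2. Rescaling on genes of at least 10 CPM gave 7169 interaction calls and 6283 calls in TET2 WT. Rescaling on genes 10 times above the olfactory receptor level gave 5744 interaction calls, 4876 in TET2 WT, 5010 in TET2 KO and 3483 genes with opposite responses. Both sets are smaller by construction. Of the interaction calls tested in them 192 and 439 changed sign. The median interaction of all genes was -0.19, and -0.29, -0.17 and 0.01 under DESeq2 size factors, total counts and rescaling on genes of at least 10 CPM.

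The shared class counted 511 genes, against 283 with DESeq2 size factors, 295 with total gene counts, 250 without the filter, 302 with DESeq2, and 210 and 136 in the smaller sets of at least 10 CPM and of 10 times the olfactory receptor level. The cause was not tested. A 2-fold threshold left 6307 interaction calls, and a change of at least 0.5 in both arms left 2534 opposite and 39 shared genes. Leaving out each library in turn gave 11924 to 13178 interaction calls, 9608 to 12103 in TET2 WT, 8279 to 9622 in TET2 KO, 5309 to 6032 opposite and 455 to 549 shared genes, and an MBD6 interaction of 0.67 to 0.84. Over all alternatives that interaction ran from 0.49 to 0.84 and stayed past the threshold. A replicate block gave 12873 interaction calls, 11146 in TET2 WT, 9579 in TET2 KO, 6095 opposite and 506 shared genes, with an MBD6 interaction of 0.75. Of the 12 libraries 1 correlated best with its own number in every other group, while the 3 same-numbered TET2 WT pairs correlated at 0.103 to 0.312. Taking all read records as the total kept the unadjusted exact permutation p at 0.005 for mitochondrial and olfactory receptor levels and at 0.01 for MALAT1. The 10563 genes under 1 CPM had 2075 calls, and the part of depth in this was not tested.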
